A study of Saccharomyces cerevisiae with 4 samples.

Results

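The cytosolic ribosome of budding yeast (Saccharomyces cerevisiae) is built from proteins encoded by RPL genes (large subunit), RPS genes (small subunit) and RPP genes (the P-stalk of the large subunit). They were taken as every open reading frame (ORF) of the deposited table whose gene symbol starts with RPL, RPS or RPP and a digit, without RPP1, which belongs to RNase P. This gave 137 genes of the 6260 ORFs: 76 RPL, 56 RPS and 5 RPP genes. Of these, 118 form 59 pairs of paralogues named A and B, most of them left by an ancient duplication of the genome, and 19 have a single copy. Because they were picked from the table, the count of 137 does not show whether any ribosomal protein gene is absent from it.

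Each value compares RNA of a strain labelled as lacking one factor of the sulfur regulatory system (MET28, MET31, MET32 or CBF1) with wild-type RNA on a 2-colour array. The second channel is labelled "wt+met" for met28 and cbf1 and "wt" for met31 and met32, so a strain and its kind of reference cannot be told apart. Colonies came from plates with G418, and liquid cultures in defined YNB medium were kept at 30 °C until their optical density stood between 0.8 and 1.0. Every strain has 1 column of values (n = 1), so there is no replicate check and no test, and differences below are descriptions of these 4 columns. The values are signed and were read as log ratios. The sources used here give neither their base nor their centring. Deletion strain over wild type is the likely direction, since on their own arrays MET28 (-1.294) had the lowest value, CBF1 (-0.995) the 4th lowest and MET31 (-0.32) the 5th lowest. The array labelled met32 had MET32 at 0.012, so its direction is not settled. An exact 0 was treated as not measured.

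Yeast regulates its ribosomal protein genes together, mainly through promoters bound by Rap1 with Fhl1 and its coactivator Ifh1, under control of the growth regulators TORC1 and protein kinase A. Transcription of these genes is a large share of what a growing cell makes, and it is known to drop in stress or starvation while stress genes rise. Paralogous copies usually encode near-identical proteins, and probes for them cannot be assumed to tell the copies apart.

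Ribosomal protein genes were missing less often than all ORFs on met28, met31 and cbf1, and about as often on met32. An exact 0 was listed for 3 of the 137 genes on the met28 array (2.19%, against 16.3% of all ORFs) and for 3 on met31 (2.19%, against 5.86%). It was listed for 8 on met32 (5.84%, against 6.04%) and for 2 on cbf1 (1.46%, against 14.0%). This left 134, 134, 129 and 135 measured genes, 123 of them on all 4 arrays. The genes listed at 0 on more than 1 array were RPL14A and RPL39, both on met28 and cbf1. Of the 8 zeros on met32, 6 fell on chromosome II, which carries 10 of the 137 genes and where 193 of 390 ORFs of the gene table were at 0 on that array.

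Values of the group lay near the middle of each array. On met28, met31 and cbf1, 0 of its genes lay in the lowest 2.5% or the highest 2.5% of the measured ORFs, here called the tails. Over all ORFs the lowest tail held 2.54%, 2.55% and 2.51% and the highest tail 2.52%, 2.51% and 2.51% on these arrays. On met32 the lowest tail held 1 of 129, RPS19B (-0.176), and the highest held 1, RPS10A (0.169), against 2.52% and 2.58% of all ORFs. Both encode proteins of the head of the small subunit. Values of the group were also bunched more closely than those of all ORFs. Their robust SD (a spread estimate from the median absolute deviation) was 0.0423 on met28, against 0.0778 for all ORFs. It was 0.0267 against 0.0519 on met31, 0.0534 against 0.0608 on met32 and 0.0638 against 0.1097 on cbf1. Between the quartiles of all ORFs lay 92 of 134 genes (68.7%) on met28 and 101 of 134 (75.4%) on met31, where those bounds hold 49.7% and 49.1% of all ORFs. On met32 it was 74 of 129 (57.4%) against 49.4%, and on cbf1 88 of 135 (65.2%) against 49.6%. The spread of the group was nearest to that of all ORFs on the met32 array, at 0.878 of it, and 0.514 to 0.581 of it on the others. Of the other gene lists described below, only elongation and termination factor genes (0.0193) had a lower robust SD than the group on met28. On cbf1 only chaperone and nascent chain factor genes (0.0445) did. On met32 it was lower for regulator (0.0408), initiation factor (0.0504), biogenesis (0.0297) and mitochondrial ribosomal protein genes (0.0445). No other list was below the group on met31.

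**Figure D1:**
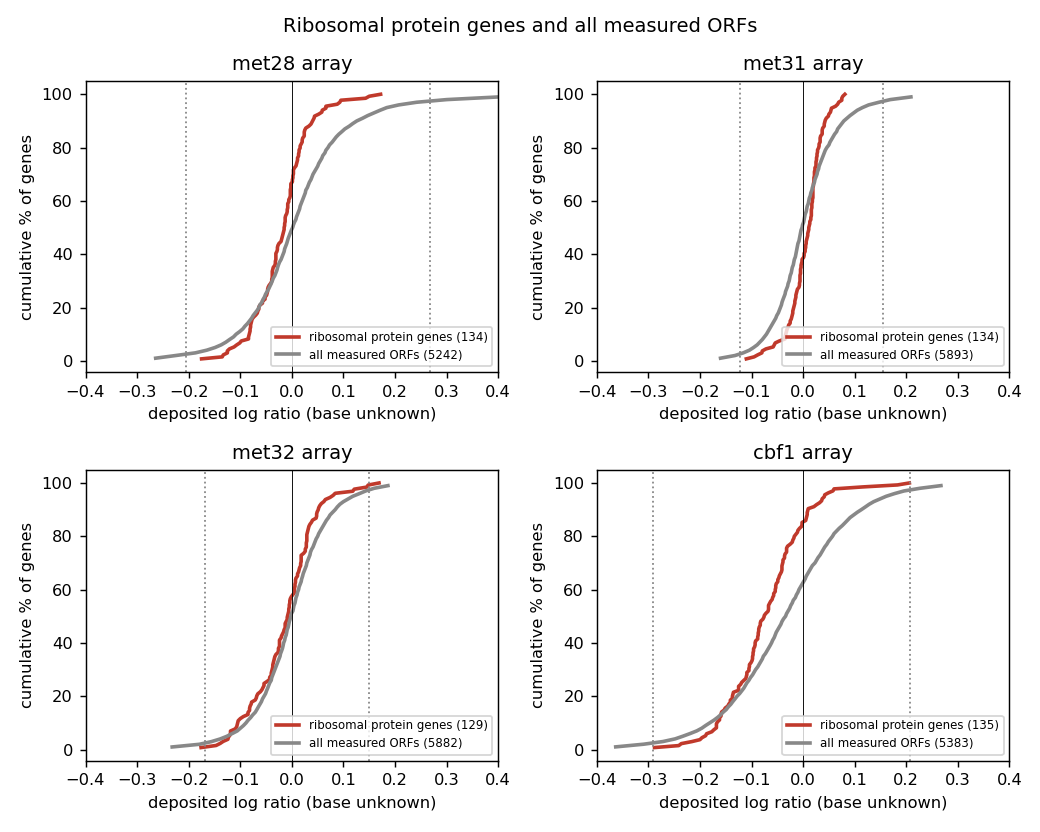
Cumulative percent of genes (vertical axis) against the deposited log ratio of unknown base (horizontal axis) for ribosomal protein genes (red) and all measured ORFs (grey, drawn between percentiles 1 and 99), 1 panel per array. Dotted lines bound the tails. The red curve is steeper than the grey one on every array, least so on met32, and on cbf1 it lies to the left, with a median of -0.075 against -0.034.

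The shift of the group as a whole was clearest in size on the cbf1 array. The median of the 135 measured genes was -0.075 there, against -0.034 for all 5383 ORFs, and 99 genes (73.3%) lay below the array median, against 50.0% of all ORFs. In levels, the group's median is 1.19-fold below the reference channel if the values are log10 ratios and 1.05-fold below it if they are log2 ratios. Relative to the array median it is 1.1-fold or 1.03-fold below. On met28 the median was -0.0145, against 0.0015 for all ORFs, with 91 of 134 genes (67.9%) below the array median, against 50.0%. On met31 the median was 0.0115, against -0.002, and 49 of 134 genes (36.6%) lay below the array median, against 49.9%. There 83 genes lay above it. On met32, as deposited, the median was -0.008, against -0.002, with 73 of 129 (56.6%) below the array median, against 49.9%. With the sign of that array turned, the group's median is 0.008.

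On the cbf1 array the lowest genes were spread over both subunits. RPL24A, for a large subunit protein at a bridge to the small subunit, was lowest at -0.288, just short of the lowest tail, and its paralogue RPL24B was at -0.151. RPL4B was at -0.241 and RPL4A at -0.168; both encode a protein that lines the peptide exit tunnel. In each of these pairs both copies lay below the group's median of -0.075. RPL31A (-0.216), RPL41A (-0.2), RPS29A (-0.196), RPL40B (-0.187), RPL27A (-0.177) and RPS18A (-0.173) followed, with RPL3 (-0.189), a single-copy gene whose protein reaches towards the peptidyl transferase centre. RPL40B encodes a fusion of ubiquitin to a ribosomal protein.

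At the other end of the cbf1 array, 3 genes stood above the rest. RPL41B was at 0.206, just short of the highest tail, and RPL35A at 0.183. RPL41 encodes one of the shortest proteins known in yeast, and Rpl35 sits at the rim of the exit tunnel where the signal recognition particle docks. RPL15A, for a protein of the large subunit core, was at 0.116. The rest of the 10 highest lay between 0.036 and 0.06: RPS19B (0.06), RPL11A (0.058), RPL23B (0.049), RPS14B (0.042), RPL2A (0.041), RPL16B (0.037) and RPS3 (0.036). RPS3, for a protein at the mRNA entry channel, was the highest single-copy gene. In all, 20 of the 135 genes lay above 0, a value between percentiles 62 and 63 of all ORFs on this array. Above the array median of -0.034 lay 36 of the 135.

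**Figure D2:**
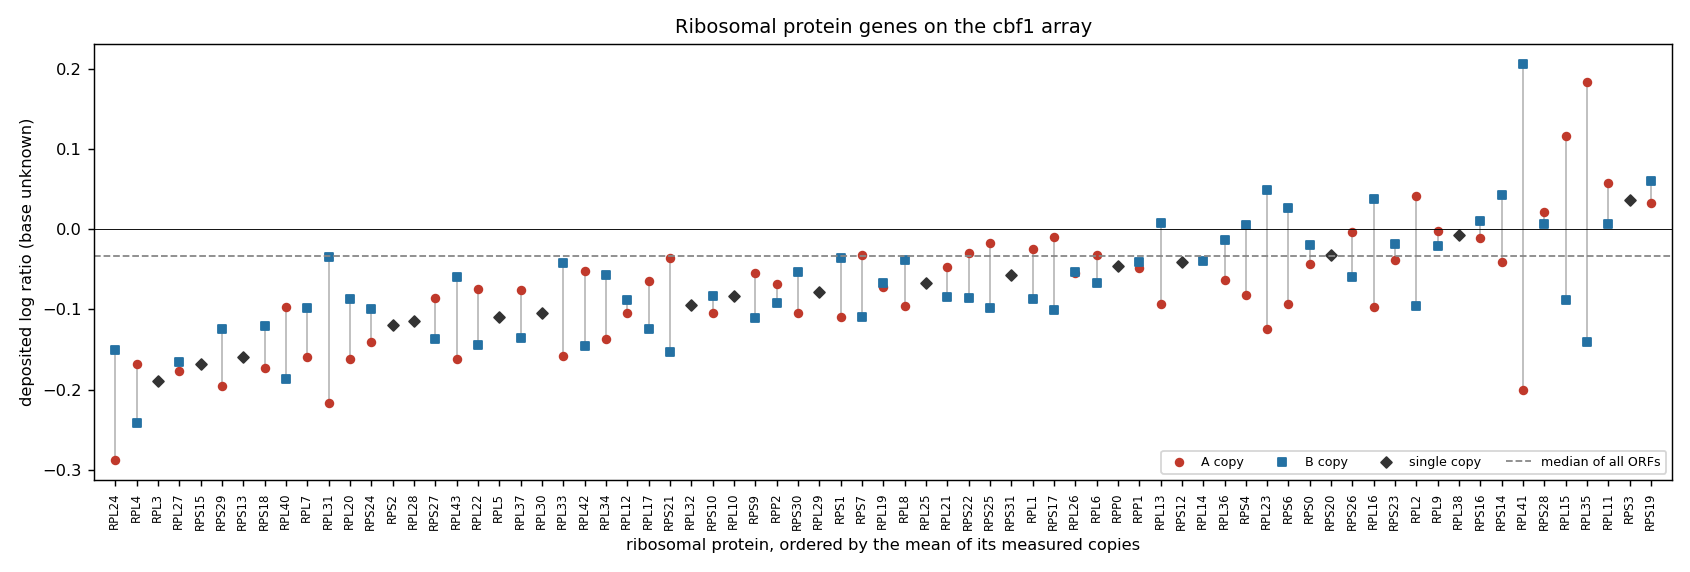
Deposited log ratio (base unknown) on the cbf1 array of the measured ribosomal protein genes of 73 proteins, with the A copy (red circle), the B copy (blue square) and single-copy genes (black diamond) of each protein on 1 vertical line. Most points lie below the dashed median of all ORFs (-0.034), and the widest lines are those of RPL41, RPL35 and RPL15.

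On the met28 array the lowest genes were RPS26B (-0.175), RPS25B (-0.135), RPL38 (-0.133), RPL41B (-0.125), RPS20 (-0.125), RPL32 (-0.121), RPS17A (-0.112), RPL5 (-0.107), RPL6A (-0.101) and RPL36B (-0.098). Rps26 and Rps25 are small subunit proteins, and Rps26 lies at the mRNA exit channel. The highest were RPS3 (0.172), RPL15B (0.15), RPL43A (0.143), RPL13B (0.095), RPL9B (0.093), RPL37A (0.088), RPL41A (0.066), RPS2 (0.066), RPL10 (0.059) and RPL29 (0.058). Rps2 and Rps3 are neighbours at the mRNA entry side, and Rpl10 joins the large subunit at a late, cytoplasmic step of its assembly. RPS26B stood lower than its paralogue RPS26A (-0.083), although both were below the group's median.

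On the met31 array, where most of the group lay above the array median, RPL2B (0.081), RPP2A (0.077) and RPS14B (0.075) were among the highest. RPL19B (0.069), RPS17B (0.067), RPL16B (0.063), RPL35B (0.055), RPS1B (0.054) and RPL36A (0.053) were also among the 10 highest. The lowest included RPL40B (-0.095), RPL43A (-0.088) and RPL5 (-0.08), followed by RPL24A (-0.072), RPL33A (-0.058), RPL35A (-0.056), RPL25 (-0.054) and RPL41A (-0.046). RPS14B is known as a gene whose own product holds back the splicing of its transcript.

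On the array labelled met32, the lowest values as deposited included those of RPS19B, RPL6B (-0.139), RPL5 (-0.133), RPL41A (-0.124), RPS29B (-0.123), RPL4B (-0.12), RPL42B (-0.119), RPS27B (-0.119) and RPS29A (-0.11). RPS29A and RPS29B were the only pair here with both copies among the 10 lowest genes. The highest were RPS10A, RPL15A (0.148), RPL22B (0.145), RPP1B (0.121), RPL4A (0.118), RPL14B (0.084), RPS17A (0.08), RPL34B (0.074), RPS21A (0.065) and RPL17A (0.062). RPL22B is the copy whose splicing the Rpl22 protein is known to inhibit. With the sign turned, both ends change places.

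Several genes can be followed over all arrays, in the order met28, met31, met32 and cbf1. RPL5, whose protein carries the 5S rRNA into the large subunit, was at -0.107, -0.08, -0.133 and -0.109. It was among the 10 lowest on met28, on met31 and, as deposited, on met32, where it is at 0.133 with the sign turned. Its partners in the 5S particle lay higher, with RPL11A at 0.024, 0.006, 0.028 and 0.058 and RPL11B at 0.027, 0.019, -0.013 and 0.006. RPS3 was at 0.172, 0.016, 0.049 and 0.036, the value on met32 being -0.049 with the sign turned. The arrays of a pair with the same reference label may share wild-type RNA, so a like value on both is not independent.

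The P-stalk, which binds the elongation factors and activates their GTP hydrolysis, is made of Rpp0 and 2 heterodimers of P1 and P2 proteins. Its 5 genes were close together on cbf1, and all but RPP2B lay above the group's median of -0.075: RPP0 at -0.046, RPP1A at -0.049, RPP1B at -0.041, RPP2A at -0.068 and RPP2B at -0.092. All lay below the array median of -0.034, most of them by little, as did 73.3% of the group and 50.0% of all ORFs. On met31, where 83 of 134 genes of the group lay above the array median, all 5 did. RPP2A was at 0.077, RPP2B at 0.049, RPP0 at 0.045, RPP1A at 0.022 and RPP1B at 0.009. On met28 the stalk genes ran from -0.052 (RPP2B) to 0.018 (RPP1A). On met32, as deposited, RPP1B stood apart at 0.121, while the others ran from -0.104 (RPP0) to -0.006 (RPP2B).

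Of the 12 genes for proteins at the rim of the exit tunnel, 10 of 11 measured (90.9%) lay below the array median on cbf1, with a median of -0.067. Of all large subunit genes 78.5% did, with a median of -0.078, and of all ORFs 50.0%. RPL35A was the exception. On met28 it was 8 of 10, on met31 3 of 12 and on met32, as deposited, 7 of 10. The 3 ubiquitin fusion genes RPL40A, RPL40B and RPS31 lay below the array median on met28, met31 and cbf1, with medians of -0.029, -0.016 and -0.097. On these arrays 67.9%, 36.6% and 73.3% of the group and 50.0%, 49.9% and 50.0% of all ORFs lay below it. On met32 the 3 fusion genes were at -0.056, -0.069 and -0.038 as deposited, or 0.056, 0.069 and 0.038 with the sign turned. These genes supply part of the cell's ubiquitin as well as ribosomal proteins. On the mRNA entry side, RPS2 and RPS3 were above the array median on met28 (0.066 and 0.172) and RPS30A and RPS30B below it (-0.057 and -0.067). On cbf1 RPS2 (-0.119), RPS30A (-0.105) and RPS30B (-0.053) were below the array median and RPS3 (0.036) above it.

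Large and small subunit genes were set side by side by their medians, and the largest difference was that on cbf1. On cbf1 the 79 measured large subunit genes (RPL and RPP) had a median of -0.078 and the 56 small subunit genes a median of -0.0555, a difference of -0.0225. Below the array median lay 62 large subunit genes (78.5%) and 37 small subunit genes (66.1%). On met28 the medians were -0.014 for the large and -0.0155 for the small subunit. On met31 they were 0.0085 and 0.0155, and on met32 -0.009 and -0.007, the large subunit first. The 19 single-copy genes and the genes of A/B pairs were also close, with medians of -0.0805 and -0.072 on cbf1, -0.0155 and -0.0145 on met28, 0.008 and 0.012 on met31 and -0.0065 and -0.009 on met32, single-copy genes first.

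**Figure D3:**
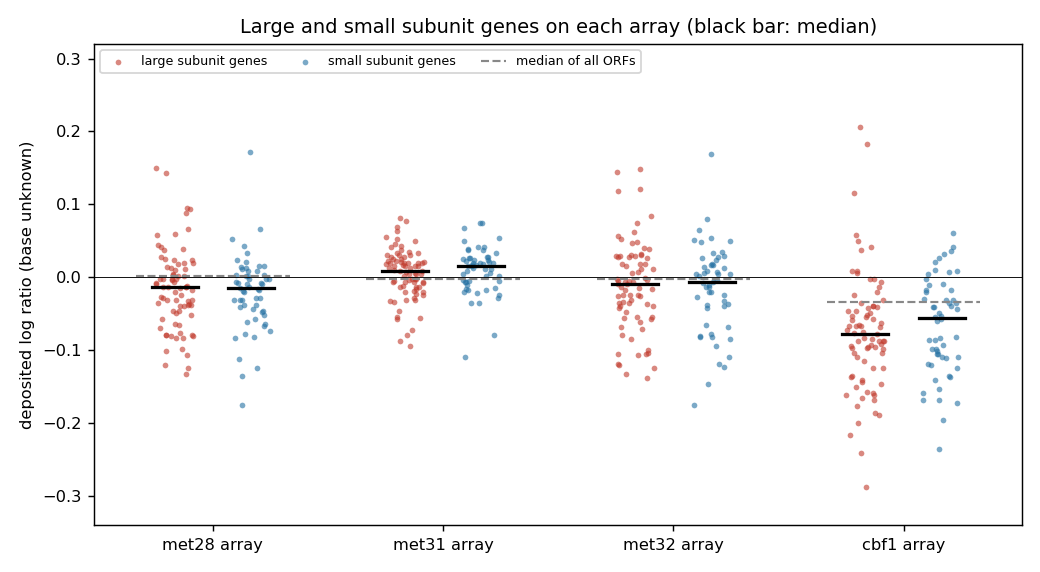
Deposited log ratio (base unknown) of each measured large subunit gene (red) and small subunit gene (blue) on the 4 arrays, with black bars at the medians and dashed lines at the median of all ORFs. The subunits overlap on every array, and both medians on cbf1 (-0.078 and -0.0555) lie below the dashed line at -0.034.

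Which copy of a paralogous pair was higher varied from pair to pair. The median difference, A minus B, was 0.009 over 57 pairs on met28, 0.0005 over 56 on met31, 0.006 over 53 on met32 and -0.0095 over 58 on cbf1. The A copy was higher in 33, 28, 27 and 26 pairs and the B copy in 23, 27, 24 and 32. Paralogues lay somewhat closer to each other than genes of different ribosomal proteins, least so on cbf1. The median absolute difference within pairs was 0.026 on met28, against 0.047 over all 8854 combinations of genes of different proteins. It was 0.0235 against 0.03 on met31, 0.047 against 0.056 on met32 and 0.0615 against 0.068 on cbf1. Across pairs, the A and B values had a Pearson's r of 0.138 (Spearman's rho 0.271) on met28, 0.259 (0.147) on met31, -0.0337 (-0.0671) on met32 and 0.0736 (0.138) on cbf1. These correlations run over genes of 1 array, which share its RNA and labelling, and are descriptions. On cbf1 both copies lay below the array median in 31 pairs, both above it in 6 and on different sides or at it in 21. On met28 these counts were 28, 6 and 23, on met31 10, 24 and 22 and on met32 15, 7 and 31.

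RPL41, RPL35, RPL15 and RPL43 recurred among the 5 widest pairs of different arrays, while the other proteins there did not recur. RPL41A was at -0.2 and RPL41B at 0.206 on cbf1, a difference of -0.406. On met28 the order was the opposite, with RPL41A at 0.066 and RPL41B at -0.125, a difference of 0.191. RPL41 was also among the 5 widest pairs on met32, at -0.124 for A and 0.029 for B. RPL35A was at 0.183 and RPL35B at -0.141 on cbf1, and at -0.056 and 0.055 on met31, while RPL35A was listed at 0 on met28. The order of the RPL15 copies also differed between arrays: RPL15A was at 0.116 and RPL15B at -0.088 on cbf1, and at -0.049 and 0.15 on met28. RPL43A stood above RPL43B on met28 (0.143 and -0.009) and below it on met31 (-0.088 and 0.02). No pair stood among the 5 widest in every column.

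The other wide differences on cbf1 included RPL31 (-0.181). On met28 they were RPS25 (0.149) and RPL6 (-0.138), and on met31 RPL16 (-0.086), RPL24 (-0.079) and RPL40 (0.079). On met32 RPL4 (0.238), RPL22 (-0.224), RPS19 (0.205) and RPP1 (-0.145) were wide. Rpp1A and Rpp1B are not interchangeable, since each pairs with its own P2 partner in the stalk. At the narrow end, 21 of 57 pairs on met28 differed by at most 0.02, and 25 of 56 on met31, 12 of 53 on met32 and 8 of 58 on cbf1.

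**Figure D4:**
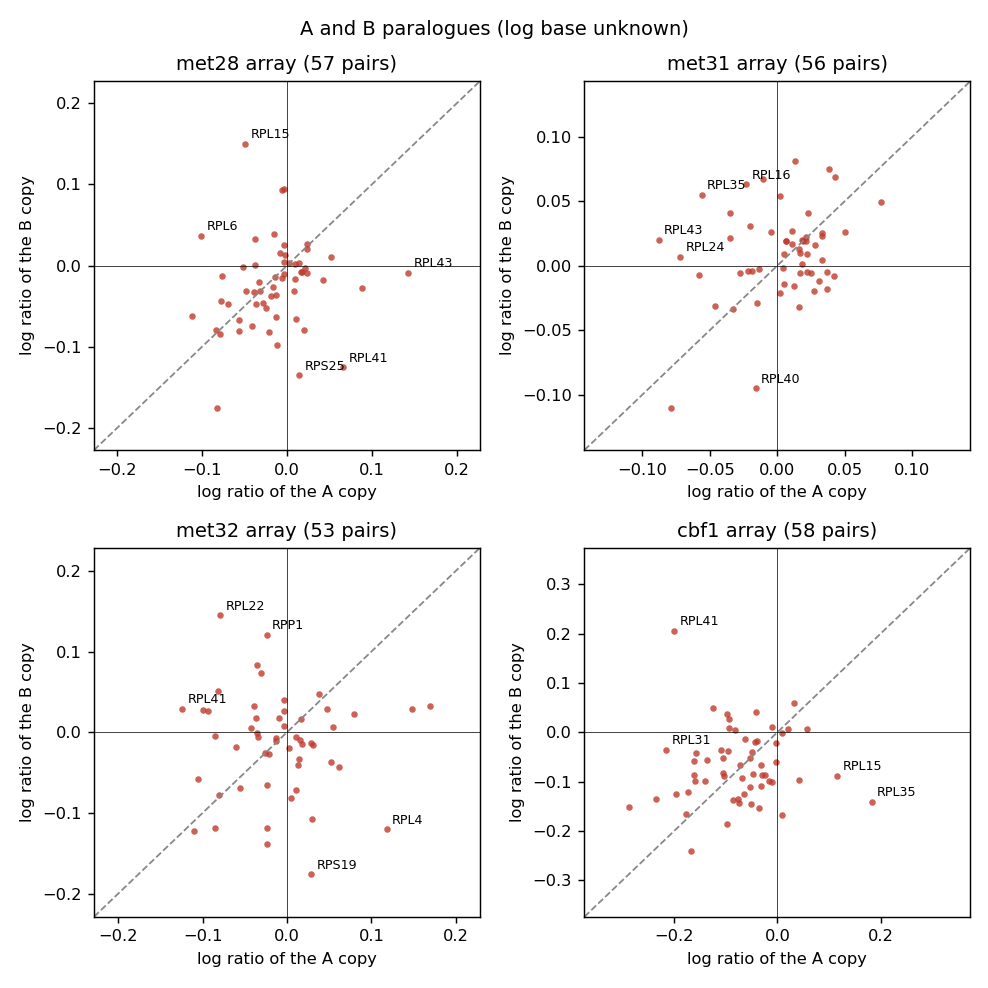
Deposited log ratio (base unknown) of the B copy (vertical) against the A copy (horizontal) of each pair with both copies measured, 1 panel per array, with axis ranges set for each panel. The dashed line marks equal values, and pairs with the largest differences are named. Points scatter widely about the line, with RPL41 (-0.2 and 0.206) farthest from it on cbf1.

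Some ribosomal protein genes are neighbours on a chromosome. In the order of protein-coding genes of the RefSeq table, 10 adjacent couples hold 18 of the genes. The duplicated couple RPL13B and RPS16A on chromosome XIII and RPL13A and RPS16B on chromosome IV was at 0.008, -0.011, -0.093 and 0.01 on cbf1. RPL24A and its neighbour RPL30 on chromosome VII were at -0.288 and -0.104 there, both below the group's median. Rpl30 is known to bind its own transcript and block its splicing.

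The regulators of these genes were described from a list of 16. IFH1, the coactivator gene, was at -0.281 on met28, in the lowest tail, and at 0.208 on met31, in the highest tail. It was at -0.004 on met32 and -0.058 on cbf1. FHL1, for the forkhead factor that Ifh1 binds, was at -0.048 on met28, -0.126 on met31 (lowest tail), -0.064 on met32 and -0.144 on cbf1. The list's other genes were in neither tail on any array. RAP1 was at -0.006, -0.036, 0.143 and -0.115 in the order of the arrays used above. SFP1, an activator of ribosomal protein and ribosome biogenesis genes, was at -0.117, -0.006, 0.016 and 0.042. HMO1, for a high-mobility-group protein at many of these promoters, was at -0.166, 0.048, 0.007 and -0.008. TOR1, a kinase of TORC1, was lowest of the list on cbf1, at -0.253, and ABF1 highest, at 0.172. SCH9, a kinase downstream of TORC1, lay between -0.054 and 0.073. Of the remaining genes, REB1 (0.16), KOG1 (0.089) and SPT7 (0.074) were highest on met28. On met31 KOG1 (0.095), CRF1 (0.088), TBF1 (0.064), GCN5 (0.025) and ESA1 (0.019) were above 0. EPL1 (-0.06), SPT7 (-0.042) and REB1 (-0.007) were below 0 there. On cbf1 EPL1 (0.1), KOG1 (0.061) and ESA1 (0.014) were above 0. SPT7 (-0.103), GCN5 (-0.064), TBF1 (-0.034), REB1 (-0.026) and CRF1 (-0.008) were below 0 on that array. Of these, REB1 and CRF1 lay above the array median of -0.034 and TBF1 at it. The list's median on cbf1 was -0.03, with 7 of 16 (43.8%) below the array median. On the other arrays 9 of 14 (64.3%) lay below it on met28, 9 of 16 (56.2%) on met31 and 6 of 14 (42.9%) on met32 as deposited.

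Other genes of translation give a scale for the group. On met28, 67.9% of ribosomal protein genes lay below the array median with 0 in the lowest tail, against 31 of 33 ribosome biogenesis genes (93.9%, median -0.097) with 6 in that tail. On met31, 36.6% lay below it with 0 in the highest tail, against 1 of 35 biogenesis genes (2.86%) with 9 in that tail, led by NOG1 (0.211) and MAK16 (0.2). On cbf1 the shares were 73.3% for ribosomal protein genes and 24 of 34 (70.6%, median -0.1035) for biogenesis genes. Mitochondrial ribosomal protein genes encode the separate ribosome of that organelle. On cbf1 the cytosolic genes had a median of -0.075, against -0.027 for the mitochondrial ones, of which 31 of 65 (47.7%) lay below the array median. On the other arrays 39 of 64 mitochondrial genes (60.9%) lay below it on met28, 27 of 65 (41.5%) on met31 and 31 of 65 (47.7%) on met32, or 33 (50.8%) with its sign turned. Whether these lists differ from the group cannot be tested with 1 column per strain.

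Initiation factor genes had 13 of 19 (68.4%) below the array median on met28, 7 of 20 (35.0%) on met31, 5 of 18 (27.8%) on met32 and 11 of 20 (55.0%) on cbf1. SUI3 (0.16) was in the highest tail on met31, and TIF4632 (0.18) and HCR1 (0.167) on met32 as deposited. With the sign of met32 turned, 12 of 18 (66.7%) initiation genes lie below its median, and TIF4632 and HCR1 are in the lowest tail. Elongation and termination factor genes were in neither tail on any array, with medians of 0.005, 0.027, -0.0125 and -0.0295 over the 4 arrays. Chaperones of ribosomal proteins and nascent chain factors had medians of -0.022, 0.01, -0.006 and -0.078, with 61.5%, 33.3%, 56.2% and 66.7% below the array median. Among them SYO1 (-0.367), for the importer of Rpl5 and Rpl11, and YAR1 (-0.384), for the chaperone of Rps3, were in the lowest tail on met28. TSR2 (0.168), for the chaperone of Rps26, was in the highest tail on met31. The genes of the client proteins on met28 were at -0.107 (RPL5), 0.024 (RPL11A), 0.027 (RPL11B) and 0.172 (RPS3). Those on met31 were at 0.012 (RPS26A) and -0.016 (RPS26B).

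General stress genes lay on the opposite side of the array median from the ribosomal protein genes on met28, met31 and cbf1. On cbf1 their median was 0.132 with 6 of 25 (24.0%) below the array median and 5 in the highest tail. On met28 it was 0.038 with 9 of 26 (34.6%) below, and on met31 -0.055 with 23 of 26 (88.5%) below and 5 in the lowest tail. On met32, 15 of 25 stress genes (60.0%) lay below it as deposited and 10 (40.0%) with the sign turned. The part that growth state or stress of the cultures had in the shifts of the ribosomal protein genes was not tested.

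**Figure D5:**
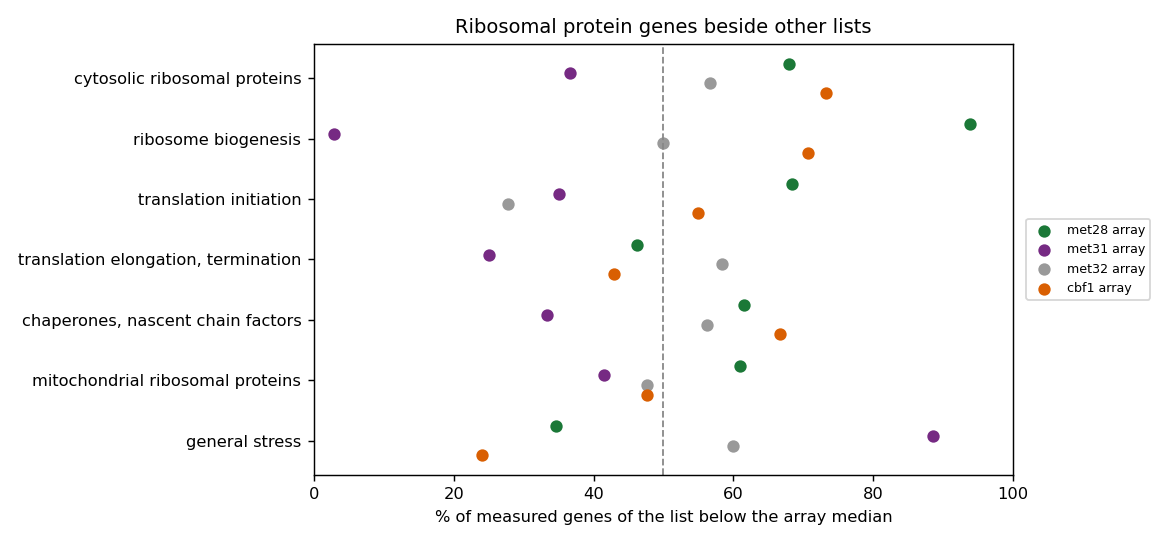
Percent of the measured genes of each list that lay below the median of all ORFs (horizontal axis), with 1 point per array: met28 (green), met31 (purple), met32 (grey, direction not settled) and cbf1 (orange). The dashed line marks an even split. Ribosomal protein genes lie between 36.6 and 73.3, inside the range of ribosome biogenesis genes, which runs from 2.86 to 93.9.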

How the data were processed

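Per the labels' protocols, total RNA was taken with hot phenol, Cy3 or Cy5 was built directly into cDNA, and at least 2 biological samples per strain were grown. The authors deposited 1 column per strain of signed values with a smallest step of 0.001, treated here as a score that is taken to be a log ratio. The sources used here do not give its base, centring, background correction, dye handling or averaging. Precision is limited by having 4 arrays. Symbols, chromosomes and gene order were taken from RefSeq genes (assembly R64), which hold 5774 of the 6260 ORFs.

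Exact 0 was treated as missing. Medians, robust SDs, tails of 2.5% and counts below the array median were computed per array, without a test. The genes and lists were chosen with earlier results of these data known. The list of mitochondrial genes and the groups by site on the ribosome were added after the values were seen. Named are the 10 highest and lowest genes per array, the 5 widest pairs, tail members, P-stalk genes, regulators and examples from the other lists, and some genes and neighbours chosen after their values were seen. Some members are counted but not reported by name here. Motif counts and protein sequences were not used here. As a check of the code only, constants added to the group in shuffled copies of each array were returned, 3 of 3. Arithmetic fixes that outcome, so it does not show that a real shift could be detected. Python 3.11.15, pandas 2.3.3, numpy 2.4.6, scipy 1.17.1 and matplotlib 3.10.9 were used.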

Additional observations from a re-analysis of the deposited data

How the results depend on the processing

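Of 68 medians, differences and shares recomputed under other settings, 58 stayed within the interval of the reported value, 2 of them at exactly 0, while 1 moved and 9 turned to the other side of 0 (shares, of an even split). Of 17 counts of tail genes, 11 were equal to or within 1.5 times the reported count and 6 moved. The interval is the 95% binomial one (for medians, from ranks; for subunit differences, from both medians' bounds), and genes are not replicates, so it serves only as a yardstick. The medians of the group and the shares below the array median kept their side on met28, met31 and cbf1 under every setting run. Centred on the array median, the cbf1 median was -0.0410. The lowest and highest tails of 5% together held 1 of 134 genes on met28, 1 of 134 on met31, 9 of 129 on met32 and 5 of 135 on cbf1. By definition each such tail holds about 5% of all ORFs. Tails of 1% held 0 of 129 on met32, and zeros counted as values gave 2 of 137 genes in the tails on cbf1. The large minus small subunit difference turned to -0.0005 on met28 over genes measured on all 4 arrays and to -0.0135 with each pair counted once. On met32 it turned to 0.0075 with each pair counted once and 0.0038 with means. The A minus B difference turned to -0.0061 with means on met31. With the sign of met32 turned, its median was 0.0080, its share below the array median 43.4%, its subunit difference 0.0020 and its A minus B difference -0.0060. The changes of side on met32 with its sign turned are among the 9 and follow from turning it. The cbf1 value after centring follows from the centring, and counts in wider or narrower tails follow their cutoffs. The cause of the other changes was not tested. Leaving out pairs with near-identical proteins was not run. No paired analysis was possible because each strain has 1 column.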
